A study of Mus musculus with 2 samples.

Results

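The genes described here make, import and phosphorylate creatine. They are the 4 creatine kinases Ckm, Ckmt2, Ckb and Ckmt1, the synthesis enzymes Gatm and Gamt, and the transporter Slc6a8. All 7 were found by the gene name printed beside the gene spots of the array files, on 8 probes and 17 spots per array, out of 19505 genes named on the array. The study set PKGI-/- mice (KO), which lack a kinase switched on by cGMP and made from the gene Prkg1, beside wild type littermates (WT). Both are on the C57BL/6N background, and the labels give no age or sex. Brown adipose tissue (BAT) came from untreated animals, 1 KO and 1 WT mouse, and the second comparison used brown adipocytes differentiated in culture from preadipocytes of a KO and a WT littermate. Each comparison was a single two-colour array, with KO in Cy5 and WT in Cy3 for the tissue (the BAT array) and the reverse for the cells (the adipocyte array). The labels used here do not name the Prkg1 allele, and animals beyond these were followed by the study with PCR, which was not analysed here.

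Creatine is built in a pair of steps. Gatm (glycine amidinotransferase) joins arginine and glycine into guanidinoacetate, and Gamt (guanidinoacetate methyltransferase) adds a methyl group from S-adenosylmethionine. Slc6a8 carries creatine into cells, where creatine kinases move a phosphate between ATP and creatine. Ckm is the cytosolic kinase of muscle, Ckmt2 the mitochondrial kinase of striated muscle, Ckb the cytosolic kinase of brain and many other tissues, and Ckmt1 the ubiquitous mitochondrial kinase. In brown fat, a cycle of phosphorylation and dephosphorylation of creatine is known as a route of heat production that runs beside the uncoupling protein Ucp1, and Ckb has been linked to it.

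With 1 array per comparison no test between genotypes was possible, and all ratios describe these RNA samples. Values are log2 ratios of KO over WT, and a gene was counted when it differed at least 2-fold (a log2 ratio of at least 1 in size). Repeated spots of 1 probe gave a pooled SD of 0.11 for the tissue (over 194 probes) and 0.09 for the cells (over 201 probes), which covers spotting and scanning only. Of the gene spots, 63.1% to 74.1% were well above background in each channel. There was no dye swap of either array, and in each of them dye and genotype cannot be told apart for a gene. Prkg1 itself had ratios of -0.84 in tissue and -1.03 in cells.

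In KO brown fat the muscle-type creatine kinases were far lower than in WT, synthesis genes were lower by less, and the transporter was close to equal. On the BAT array all 7 genes were well above background in KO, WT or both, and had a log2 ratio below 0 (Gamt, Slc6a8 and Ckmt1 changed sign under some settings, given with each gene), with a median of -0.83 against 0.00 for all 15623 genes measured. Ckm, Ckmt2 and Gatm passed 2-fold downward and no member upward. That is 3 of 7 lower and 0 of 7 higher, where 2.44% of all genes on this array were at least 2-fold lower, 0.8% higher and 3.24% either. In the cultured cells 5 of the 7 could be measured, 2 of them below 0, with a median of 0.23 against 0.00 for all 15119 genes. There only Gatm passed 2-fold, 1 of 5 lower and 0 of 5 higher, where 4.17% of all genes were at least 2-fold lower, 2.49% higher and 6.67% either. The BAT count includes Gatm, which lay at the 2-fold line.

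**Figure D1:**
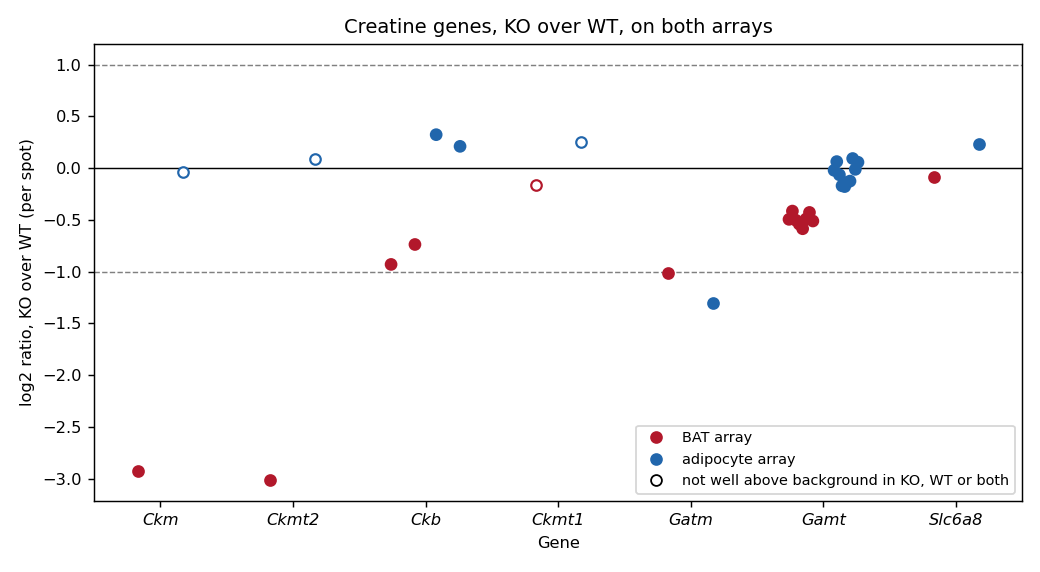
Log2 ratio of KO over WT for each spot of the 7 creatine genes on the BAT array (red) and the adipocyte array (blue), with open circles for spots not well above background in KO, WT or both, and dashed lines at 2-fold. Ckm (-2.93) and Ckmt2 (-3.01) lie far below the other genes on the BAT array and are open circles near 0 on the adipocyte array, while Gatm is low on both.

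Ckm, the muscle kinase that buffers ATP at the sarcomere, was 7.62-fold lower in KO tissue (log2 ratio -2.93). Its spot read a mean signal of 1544 over a local background of 57 in the KO channel and 5019 over 32.5 in the WT channel. After normalization the log2 intensity was 10.69 in KO and 13.62 in WT. Only 12 of the 15623 genes had a lower ratio. Its probe lies on chromosome 7 from 17099247 to 17101854 in the array's own coordinates, for which the sources used here name no genome build.

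Ckmt2, which sits in the mitochondrial intermembrane space of striated muscle, was 8.07-fold lower in KO tissue (log2 ratio -3.01). The spot read 832 over a background of 69 in KO and 2880 over 37 in WT, and the normalized log2 intensity was 9.81 against 12.83. Only 9 genes had a lower ratio. The background of this 1 spot was marked in the file as unlike that of the other spots, so that leaving out such spots left Ckmt2 without a value. Its probe lies on chromosome 13 from 88926674 to 88928822 in the same coordinates. With outlier spots kept, Ckmt2 was at -2.09 and Ckm at -2.41, and over the settings that gave a value they ran from -3.12 to -2.09 and from -2.98 to -2.36. Both muscle-type kinases were thus more than 2-fold lower in KO tissue under each of these settings, and which of them was lower turned with outlier spots kept.

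The stretches of promoter before the start of these muscle-type genes are shown because both were lower together on the BAT array, with that of Ckb, the other cytosolic kinase, for comparison. They are the 250 bases before the RefSeq gene start on GRCm38.p6, printed 5′ to 3′ along the gene, and capitals mark the E-box CANNTG, the motif bound by myogenic and other basic helix-loop-helix factors. Ckm is at chr7:19410844-19411093 on the plus strand, Ckmt2 at chr13:91876886-91877135 and Ckb at chr12:111672339-111672588, both on the minus strand.
Ckm: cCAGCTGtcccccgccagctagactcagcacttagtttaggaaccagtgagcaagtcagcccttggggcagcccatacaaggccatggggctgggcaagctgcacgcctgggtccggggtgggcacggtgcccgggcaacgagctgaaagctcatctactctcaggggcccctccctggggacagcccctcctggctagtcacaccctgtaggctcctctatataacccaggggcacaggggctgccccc
Ckmt2: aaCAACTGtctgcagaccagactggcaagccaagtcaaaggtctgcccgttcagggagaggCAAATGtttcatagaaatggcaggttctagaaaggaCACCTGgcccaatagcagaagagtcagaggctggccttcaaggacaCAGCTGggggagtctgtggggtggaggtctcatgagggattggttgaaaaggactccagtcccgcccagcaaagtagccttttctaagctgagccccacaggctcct
Ckb: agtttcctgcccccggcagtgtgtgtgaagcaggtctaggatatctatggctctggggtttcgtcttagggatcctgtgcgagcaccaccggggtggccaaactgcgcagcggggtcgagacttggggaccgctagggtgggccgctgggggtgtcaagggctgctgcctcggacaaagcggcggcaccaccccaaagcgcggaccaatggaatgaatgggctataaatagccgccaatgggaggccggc
Ckmt2 holds 4 E-boxes, starting 248, 189, 153 and 107 bases before the start, and Ckm holds 1, starting 249 bases before it. Ckb holds none. An E-box occurs in 66.2% of all 32851 promoter windows of this length, so its presence is common. Ckb has a TATA box (TATAAA) starting 28 bases before its start, found in 12.4% of windows, and 2 CCAAT boxes, found in 33.8% and present in Ckmt2 as well. That TATA box overlaps a match to the MEF2 site, a motif named for a muscle transcription factor family and found in 0.508% of windows. No MEF2 match was in the Ckm or Ckmt2 window. No match to the pattern searched for a CArG box, estrogen-related receptor element or cAMP response element was in any of the 3, each searched on both strands. Sequences that depart from the searched patterns were not counted, such as ccatacaagg and tatataa in the Ckm window.

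Skeletal muscle transcripts were lower in the same KO tissue. Of 30 skeletal muscle markers 29 were measured on the BAT array, 27 were at least 2-fold lower and 0 higher. Their median was -2.32 (-1.25 with outlier spots kept and -1.79 with median centring), and only Pvalb (-0.45) and Trim63 (-0.29) fell short of 2-fold. Their summed intensity was 103000 in KO and 552000 in WT. All 5 defining markers were well above background in both channels, with muscle actin Acta1 at -2.33, fast myosin Myh2 at -3.22, troponin Tnnc2 at -2.21, regulatory light chain Mylpf at -2.81 and the calcium release channel Ryr1 at -1.51, whose 3 probes disagreed (-2.58 to 0.59). The ratio of Ckm minus the list median was -0.61 and that of Ckmt2 -0.70, and 4 of the 29 markers were lower than either. The part of these transcripts in the ratios of Ckm and Ckmt2 was not tested. In whole tissue, fewer cells of a type and less RNA per cell cannot be told apart.

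**Figure D2:**
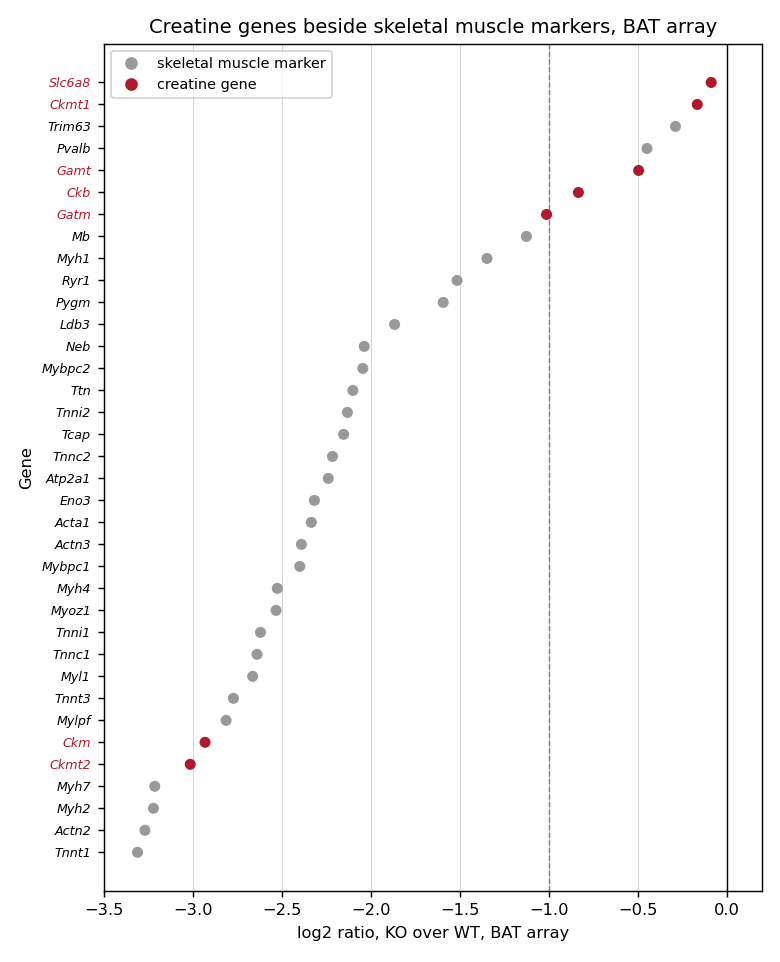
Log2 ratio of KO over WT on the BAT array for the 29 skeletal muscle markers measured (grey) and the 7 creatine genes (red), in order of ratio, with a dashed line at 2-fold lower. Ckm and Ckmt2 fall among the muscle markers, between Myh7 (-3.21) and Mylpf (-2.81), and the other creatine genes fall above nearly all of them.

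Set against the rest of the creatine genes, Ckm and Ckmt2 averaged -2.97 in tissue (log2 ratio) and the other 5 genes averaged -0.52, a difference of -2.45. Under the alternative processing settings that difference ran from -2.53 to -2.10. For the cultured cells the same comparison could not be made. Neither Ckm nor Ckmt2 was well above background there in KO or WT. The Ckm spot read 54.4 over a background of 46 in KO and 82.4 over 54.5 in WT, and the Ckmt2 spot 40.1 over 39 and 58.5 over 56.

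The 5 defining skeletal muscle markers were measured in the cultured cells too, where 27 of the 30 markers had a median of -0.08. Acta1 was higher in KO (1.52), and Mylpf (0.24), Tnnc2 (-0.10), Ryr1 (-0.08) and Myh2 (-0.20, above background in WT only) were nearer 0. The whole list had a summed intensity of 17500 in KO and 12800 in WT.

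Ckb, the cytosolic kinase of brain and many other tissues, was 1.78-fold lower in KO tissue (log2 ratio -0.83) and did not reach the 2-fold line. Both of its probes were lower, at -0.93 and -0.74. The probe on chromosome 12 from 109191453 to 109191513 read 3779 over 56.5 in KO and 3039 over 31.5 in WT, and the probe from 109192217 to 109192864 read 1208 over 50 and 874 over 30. Raw signals of the dyes are not on a common scale, so raw KO and WT values are not set against each other. Of all genes on the BAT array 3.57% had a lower ratio. Both probes were above 0 in the cultured cells, at 0.32 and 0.21, with a gene mean of 0.27, which is 2.92 times the SD of repeated spots. The dyes were reversed between the arrays, so both Ckb ratios are below 0 when taken as Cy5 over Cy3. An effect of dye and one of genotype cannot be told apart, and the difference between the arrays was not tested.

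The normalized log2 intensity of Ckb was highest in WT tissue (12.00), followed by KO cells (11.29), KO tissue (11.17) and WT cells (11.02). The last 3 lie close together, and levels between arrays rest on setting their average intensities to one distribution. Ckb was lower in KO tissue under all 10 settings, from -0.93 to -0.29. In cells it turned to -0.15 under median centring. That centring moved the median of all genes to -0.26, and relative to this median Ckb was at 0.11.

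Ckmt1, the ubiquitous mitochondrial kinase, gave a signal barely above background on both arrays. On the BAT array its spot read 81.5 over 58.5 in KO and 51.7 over 30.5 in WT, where it was not well above background, and the ratio of -0.17 gave no fold. In cells it read 65.6 over 40 in KO and 92.7 over 54 in WT, again above background in KO only. Its bound there was 1.19-fold higher in KO. That bound equals the measured ratio (0.25) of 1 spot near background, so it is not a firm minimum. Its sign on the BAT array turned with Feature Extraction's own processed signals (0.26). Its probe lies on chromosome 2 from 121104472 to 121104531 in the array's coordinates.

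**Figure D3:**
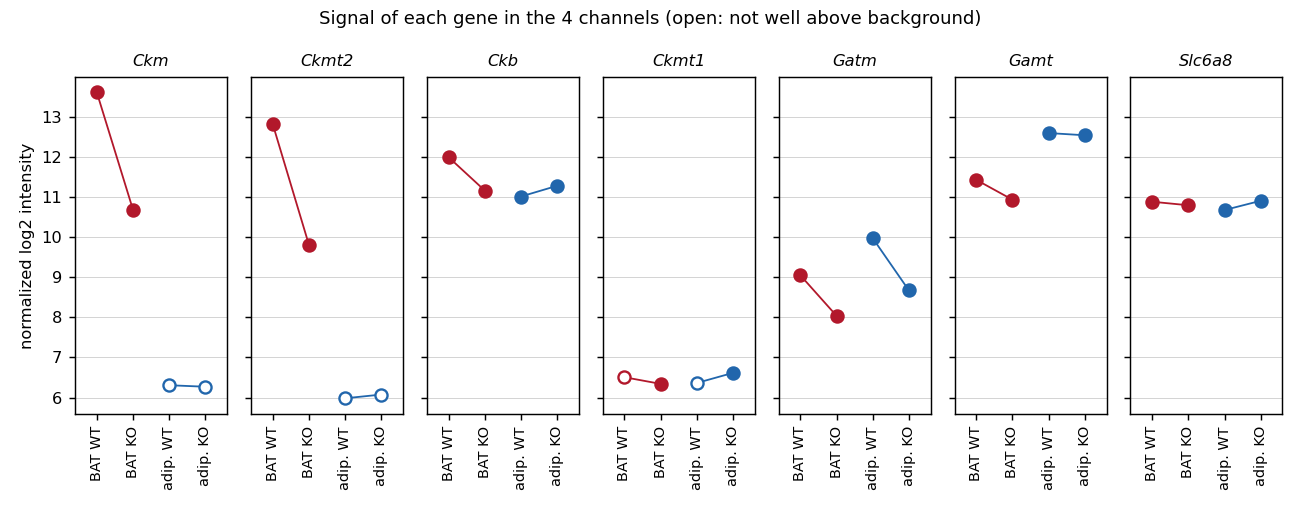
Normalized log2 intensity of each creatine gene in the 4 channels, with the WT and KO channels of an array joined by a line and open circles for signals not well above background. Ckm and Ckmt2 drop from WT to KO tissue and are not well above background in either culture, and Gatm is lower in KO in tissue and in culture.

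Gatm, which makes the creatine precursor guanidinoacetate, was at least 2-fold lower in KO on both arrays. No other creatine gene measured on both arrays was, and Ckm and Ckmt2 could not be measured in the cells. In tissue Gatm was 2.02-fold lower (log2 ratio -1.01), reading 238 over 50 in KO and 236 over 33 in WT, with normalized log2 intensities of 8.04 and 9.05. In cultured cells it was 2.47-fold lower (-1.30), reading 410.5 over 40 in KO and 2362 over 53.5 in WT, with intensities of 8.67 and 9.98. Both rest on 1 spot per array, at chromosome 2 from 122335931 to 122335990 in the array's coordinates. Of the 14280 genes measured on both arrays, 33 (0.231%) were at least 2-fold lower on each.

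The culture value of Gatm ran from -1.71 to -1.30 under 9 alternative settings. The tissue value lay close to the 2-fold line and passed it under 8 of 10 settings. It was -0.15 with outlier spots kept, -0.72 with median centring and -1.34 in the authors' deposited table of log ratios. Gatm was below 0 under all 10 settings on both arrays.

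Gamt, which methylates guanidinoacetate to creatine, was 1.41-fold lower in KO tissue (log2 ratio -0.50). Its probe was spotted 10 times, and the 8 spots used on the BAT array ran from -0.58 to -0.41 with a median of -0.50 and an SD of 0.06. None of these spots reached 0, a line set by the normalization that they share, and their spread covers spotting and scanning only. In cells the 10 spots ran from -0.18 to 0.09 with a median of -0.04 and an SD of 0.10, and they lay on both sides of 0. Median centring moved the tissue value to 0.04 while the median of all genes moved to 0.25, so that Gamt stayed 0.21 below that median.

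Slc6a8, the sodium- and chloride-dependent creatine transporter on the X chromosome, differed little on either array. Its log2 ratio was -0.09 in tissue, which is smaller than the SD of repeated spots, and 0.23 in cultured cells. The 4 normalized log2 intensities ran from 10.68 in WT cells to 10.91 in KO cells, with 10.80 in KO tissue and 10.89 in WT tissue. The spot read 1637 over 52 in KO and 746 over 29 in WT on the BAT array, and 2077 over 43 and 3985 over 51 on the adipocyte array. Median centring turned the sign on both arrays, to 0.43 and -0.19, and keeping outlier spots moved the tissue value to 0.08.

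Brown adipocyte transcripts differed as well. On the BAT array Ucp1 had -1.84, Cidea 1.01, Pparg 0.82 and Adipoq 0.77, and the 14 markers had a median of -0.44 (summed intensity 718000 in KO and 814000 in WT), with 4 at least 2-fold lower and 1 higher. Median centring turned that median to 0.27, where the median of all genes was 0.25. In the cultures the median was -2.92, with 11 of 14 at least 2-fold lower (summed intensity 8700 against 175000). Ucp1 had -3.78, Cidea -3.38, Pparg -3.49 and Adipoq -5.22 there. Ckb (0.27), Ckmt1 (0.25) and Slc6a8 (0.23) were above 0 in the same cells, Ckb and Slc6a8 not under median centring, and Gamt was at -0.05. Whether the adipocyte content of the cultures has a part in the ratio of Gatm was not tested.

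Other cell types were covered by marker lists. On the BAT array the median was -1.22 for 6 heart muscle genes, -0.63 for 9 smooth muscle genes, -0.29 for 7 endothelial genes, -0.08 for 10 macrophage genes, 0.00 for 6 nerve and Schwann cell genes and -0.27 for 3 epithelial genes. The heart list was split, with Myh6, Tnnt2 and Myl4 between -2.89 and -2.38 and Tnni3, Nppa and Myl7 between -0.05 and 0.65, and its median ran from -2.38 to -0.47 over the settings. Median centring moved the smooth muscle, endothelial and macrophage medians to -0.02, 0.23 and 0.39. In the cultures it was -0.03 for heart muscle, 1.24 for 9 smooth muscle genes, -1.79 for 10 macrophage genes, -0.33 for 5 endothelial genes, -0.31 for 7 nerve genes and 0.75 for 2 epithelial genes. The heart median turned to 0.04 with median centring, and the endothelial one to 0.02 with probes above background in both channels. Smooth muscle transcripts summed to 162000 in KO cells and 43300 in WT cells, and macrophage transcripts to 49900 and 210000. The part of these lists in the ratios of Ckb and Gatm was not tested.

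Genes next to creatine in metabolism were taken from a list of 27. Of these 24 were measured on the BAT array, with a median of -0.03, and 2 passed 2-fold downward and 0 upward. Of all genes on that array 2.44% were at least 2-fold lower and 0.8% higher. The lower genes of the list were Ak1 and Alpl. Ak1, the cytosolic adenylate kinase that shares phosphate between adenine nucleotides and is abundant in muscle, was 2.82-fold lower, with a normalized log2 intensity of 10.85 in KO and 12.35 in WT. Alpl, the alkaline phosphatase described as a phosphocreatine hydrolase in brown fat mitochondria, had -1.06, with 8.52 and 9.57. With outlier spots kept, 0 genes of the list passed 2-fold, Ak1 had -0.99 and Alpl -0.20. Under median centring they had -0.95 and -0.70, and the 1 gene of the list past 2-fold was Mat2a, upward.

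In the cultured cells 25 genes of the list were measured, with a median of -0.03, 2 at least 2-fold lower and 1 higher. Of all genes on the adipocyte array 4.17% were at least 2-fold lower and 2.49% higher. Slc25a5, a carrier that exchanges ADP and ATP across the mitochondrial inner membrane, was one of the lower genes, at -1.25, with a normalized log2 intensity of 15.23 in KO and 16.48 in WT. Slc25a4, the carrier form of heart and muscle, had 0.04 in these cells (-0.45 with median centring), with its probes at -0.25 and 0.34. Arg1, the arginase that splits the arginine used by Gatm, had 1.87, at a log2 intensity of 10.85 in KO and 8.98 in WT. It was not well above background on the BAT array. Alpl was just short of the line in these cells (-0.99), so that Alpl, like Gatm, was lower in KO in tissue and in culture.

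Of the list's enzymes of arginine and methyl group supply, Ass1, which makes the precursor of arginine, had 0.60 in tissue and 0.76 in cells. Mat2a, which makes S-adenosylmethionine, had 0.58 in tissue (1.29 with median centring) and -0.40 in cells. Both stood out after their values were seen.

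**Figure D4:**
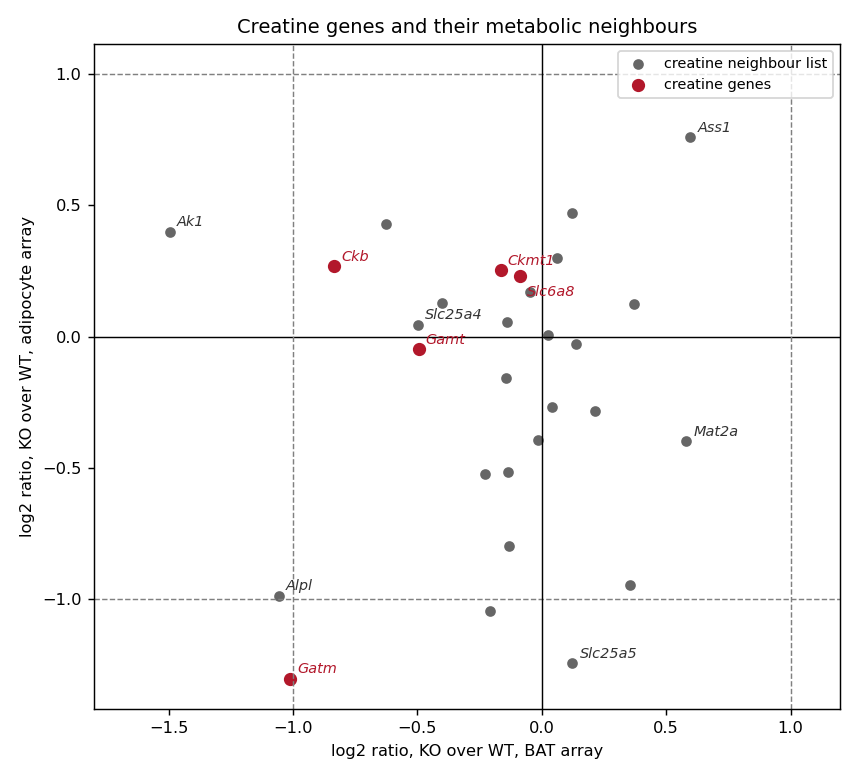
Log2 ratio of KO over WT on the BAT array (horizontal) against the adipocyte array (vertical) for the 5 creatine genes (red) and the genes of the neighbour list (grey) that were measured on both, with dashed lines at 2-fold. Gatm (-1.01 and -1.30) and Alpl (-1.06 and -0.99) lie together at the lower left, and Ak1 and Ckb at the upper left, with adipocyte ratios of 0.40 and 0.27 that fell to -0.02 and -0.15 under median centring.

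Among the 11094 genes above background in both channels on both arrays, those with the nearest pair of ratios were found by Euclidean distance over the 2 arrays. Nearest to Ckb were Dhrs9 (-0.85 and 0.26), Tcf15 (-0.81 and 0.26) and Isg15 (-0.84 and 0.30), with 19 genes within a distance of 0.1. Nearest to Gatm were 4931408D14Rik (at a distance of 0.034), Lrg1 (-0.92 and -1.34) and Aatk (-1.08 and -1.21), and only 2 genes lay within 0.1. Gamt had 108 genes within that distance, led by Cntfr (-0.50 and -0.05), Dgke (-0.51 and -0.04) and Bri3 (-0.51 and -0.07). Slc6a8 had 355, led by Dcun1d4, Cyp4f41-ps and Tigar. Slc6a8 lay near 0, as did many genes, and Gatm lay far from it, so these counts reflect the size of the ratios.

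**Figure D5:**
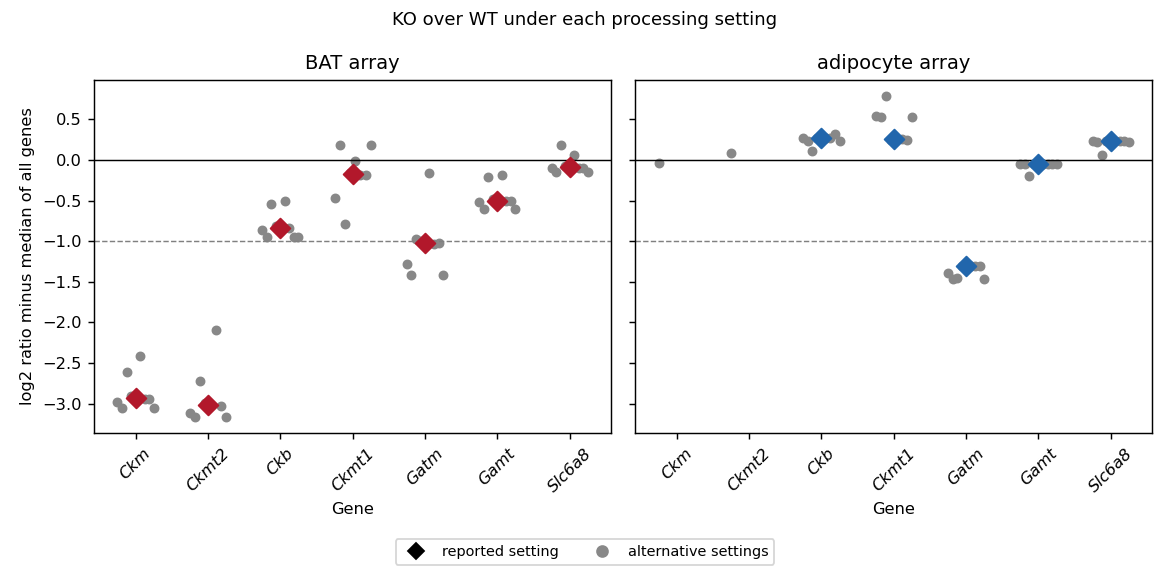
Log2 ratio of KO over WT minus the median of all genes under the reported setting (diamonds) and each alternative (grey points), on the BAT array (left) and the adipocyte array (right), with a dashed line at 2-fold lower. Ckm stays between -3.06 and -2.42 in tissue, whereas Gatm in tissue moves between -1.42 and -0.16 and in cells between -1.47 and -1.30.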

How the data were processed

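RNA extracted with Trizol was amplified and hybridised on Agilent two-colour mouse arrays, per the labels' protocols. Each spot's deposited intensity values and log10 ratio came from Agilent Feature Extraction 9.5.1.1 (protocol GE2-v5_95_Feb07), per the file headers. The authors' deposited value table holds the same log10 ratios, turned to KO over WT on both arrays (within 0.02 on the log2 scale). A missing line end between a pair of spots in 1 file was restored.

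Mean signals and local backgrounds were processed with limma 3.58.1 in R 4.3.3. Spots with an outlier flag (1215 and 203 of 43379 gene spots on the BAT and adipocyte array) were left out, apart from those flagged only as background population outliers. That exception was settled after the files were seen: the wider set, tried first, removed the Ckmt2 spot of the BAT array, and the narrower one is that of an earlier treatment of these data. Normexp (offset 50) and loess followed, controls at weight 0. Spots, then probes well above background in at least 1 channel, were averaged. Channel levels are after loess and Aquantile scaling. A gene above background in 1 channel only has a bound on its fold, against the higher of its dim signal and the lowest signal called above background.

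Genes were named from the RefSeq table of GRCm38.p6 by accession, symbol or unique synonym (8455 probes matched none), and all 7 creatine genes bore the same name in both. Promoters are RefSeq's, with 6 of 7 genes matched and Slc6a8 not listed. The steps were tested on simulated data. Of genes changed by a log2 ratio of 1.5, 73% (BAT array) and 77% (adipocyte array) were recovered past 2-fold. At a log2 ratio of 2 these shares were 90% and 87%, and 0% of unchanged genes passed. Changed genes were drawn from those above background in both channels. Unchanged genes carried only small simulated noise and a smooth dye trend, so the 0% is not a rate of false calls on the real arrays.

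The members and the gene lists were chosen with earlier results of these data known. Genes are named by rule: every creatine gene, list genes past 2-fold, the defining markers and the 3 nearest genes. One gene that the rule names is not reported here. Myh7, Pvalb, Trim63, Slc25a4, Ass1, Mat2a and the 6 heart muscle genes were named after their values were seen. The alternatives were offset 0, processed signals, median centring, 2 other filters on dim probes, outlier spots kept, background population outliers left out (added after the data were seen), the brightest probe and the authors' table.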

Additional observations from a re-analysis of the deposited data

Results flagged for a closer look

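Ckb had ratios of opposite direction on the 2 arrays, both more than 2 times the SD of repeated spots, at -0.83 in brown fat and 0.27 in the cultured cells (-0.15 there under median centring). The difference was not tested, as there was 1 array on each side. With the dyes reversed between the arrays, both ratios are below 0 when taken as Cy5 over Cy3. An effect of dye and one of genotype therefore cannot be told apart, and the SD of repeated spots does not cover dye. Ckb was the only creatine gene measured on both arrays with such opposite ratios.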

How the results depend on the processing

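Ckm and Ckmt2 were at least 2-fold lower on the BAT array under every setting that gave them a value, and Gatm was on the adipocyte array under all 10 settings. On the BAT array the difference between muscle-type and other creatine genes was -2.20 with median centring and -2.10 with outlier spots kept, against -2.45. The count of neighbour genes past 2-fold on that array was 2 as reported, 4 with processed signals, 4 in the authors' table, 1 with median centring (Mat2a, upward, with neither reported gene) and 0 with outlier spots kept. On the adipocyte array it was 3, and 6 with processed signals, with median centring and in the authors' table. The cause was not tested.

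Over all genes, 506 passed 2-fold on the BAT array, against 2354 with processed signals, 2349 in the authors' table, 1221 with offset 0, 1081 with median centring and 136 with outlier spots kept. The lower genes were 75.3% of those as reported, and 40.5% with processed signals or the authors' table and 37.8% with median centring. On the adipocyte array 1008 passed, against 1832 and 1828 with processed signals and the authors' table, with 62.6% lower as reported, 52.2% in both of those and 86.5% with median centring. Median centring moved the median of all genes to 0.25 for the tissue and -0.26 for the cells.

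The comparison of muscle-type with other genes gave a value on the adipocyte array only with no filter on dim probes (0.15), from signals not above background. Leaving out replicates could not be done with 1 array. No paired analysis was possible because each comparison is 1 array of 1 KO and 1 WT sample. The number of arrays limits the precision.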
